A study of Mus musculus with 33 samples.

Results

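The 10 oocytes described here are the wild-type (*Nlrp5* +/+) germinal vesicle oocytes among the 33 single mouse oocytes with RNA counts in the series. They are compared at 2 stages at the end of oocyte growth, with 4 oocytes called NSN (non-surrounded nucleolus, oocytes 70, 78, 79 and 87) and 6 called SN (surrounded nucleolus, oocytes 69, 72, 77, 80, 85 and 86). All are untreated cells of the C57BL6/Babr background from females aged 3 weeks, isolated by collagenase digestion of the ovaries, and the females mostly came from the parent colony and not from mutant litters. Each library was made from the RNA of 1 oocyte, separated from its DNA, by a protocol based on Smart-seq2. The stage of each oocyte is that given by the authors, who assigned it from the expression of marker genes in these same libraries, 105 known to be higher in NSN and 59 known to be higher in SN oocytes, and not from stained chromatin.

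The labels name no mouse, so the oocytes of a stage may share an animal and were treated as 1 sample. No test was made for that reason, and each SD below is the spread between cells. Because the stages were set by expression, genes that follow the markers from cell to cell part the stages more readily, and the counts of genes that differ describe these 10 cells. Oocytes of the other genotypes are used only for comparison. The stages of the *Nlrp5* +/- oocytes were read by eye from the stage bar of the study's staging heatmap, which gave 9 NSN and 7 SN cells, more than the study states it kept per stage and genotype after its filter on read count. Those of the *Nlrp5* -/- oocytes, 4 NSN and 2 SN, came from its plot of principal components.

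The growing mouse oocyte has open chromatin and an active nucleus. Near full size its chromatin condenses and forms a ring around the nucleolus, transcription by RNA polymerases I and II shuts down, and the oocyte passes from NSN to SN. It then relies on stored messenger RNA until the embryo starts to transcribe. SN oocytes are known to resume meiosis and to support early development better than NSN oocytes do.

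Library totals ran from 5136525 to 15573360 counts on genes, with a mean of 9236851 ± 1595848 (SD, n = 4) in NSN and 11250742 ± 4238867 (SD, n = 6) in SN oocytes. These totals are 105.1% to 119.4% of the reads listed for the same libraries, so a read may have been counted on more than 1 gene. Counts were divided by a size factor for each oocyte, the median ratio to the geometric mean over genes, and are called normalized counts. This scaling sets the middle gene close to no difference, and the data hold no measure of the total RNA of a cell. At least 1 count was found for 17644 ± 672 (SD, n = 4) genes in NSN and 17462 ± 685 (SD, n = 6) in SN oocytes, a difference smaller than the spread between cells, and with every library thinned to 5136525 counts the means were 17065 and 16760. All 10 oocyte markers of a fixed list were measured, and *Gdf9*, the growth factor secreted by oocytes, ranged from 49136 to 88923 normalized counts. The list summed to 26003 to 34966 CPM (counts scaled to a common library total) in NSN, a mean of 32091 ± 4193 (SD, n = 4), and 23405 to 32381 in SN oocytes, a mean of 27374 ± 2978 (SD, n = 6), 7 of its members had a negative log2 fold change, the median was -0.17, and *Ddx4*, a germ cell helicase, was lower in every SN oocyte at -1.71. Along the first principal component of all genes measured, which took 35.3% of the variance, the stages did not overlap and oocyte 79 lay farthest out, at -115 against -49.8 to -34.8 for the other 3 NSN oocytes and 24.2 to 53.1 for the SN oocytes.

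More genes were at least 2-fold lower in SN oocytes than at least 2-fold higher, and these genes were mostly of low or middle level. A gene was measured if its mean was at least 10 normalized counts, and fold changes are given as log2((SN mean + 1)/(NSN mean + 1)). Of 14007 genes measured, 1290 (9.21%) were at least 2-fold lower in SN and 612 (4.37%) at least 2-fold higher, a ratio of 2.11. Within the 3 sets of libraries described further on the ratio was 1.38, 1.54 and 1.05, and with the mean of the 3 within-set differences as a block it was 1.67. In 827 genes (5.9%) every SN oocyte lay below every NSN oocyte, and in 528 (3.77%) every SN oocyte lay above, which is called no overlap below. Of these, 602 and 222 were also at least 2-fold apart. At 4-fold the counts were 327 lower and 126 higher, and at 8-fold 81 and 34. The genes at least 2-fold lower together took 2.50% ± 0.57 (SD, n = 4) of all counts in NSN and 0.844% ± 0.158 (SD, n = 6) in SN oocytes. Those at least 2-fold higher took 0.475% ± 0.145 (SD, n = 4) in NSN and 1.08% ± 0.05 (SD, n = 6) in SN oocytes.

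The balance between the directions shifted with level. Between 10 and 100 normalized counts, 922 genes were at least 2-fold lower and 462 at least 2-fold higher, with a median log2 fold change of -0.12 over 5081 genes. Over the 8926 genes with a mean of at least 100, 368 (4.12%) were at least 2-fold lower and 150 (1.68%) higher, and 444 (4.97%) lay below and 381 (4.27%) above without overlap. Over the 2357 genes with a mean of at least 1000, 15 (0.636%) were at least 2-fold lower and 6 (0.255%) higher, yet 154 (6.53%) lay above without overlap and only 37 (1.57%) below. None of the 94 genes over 10000 differed by 2-fold, and 16 of them lay above without overlap. The median level was 37.2 normalized counts for the genes at least 2-fold higher and 44.5 for those at least 2-fold lower, against 205 for all genes measured. Scaling by the total count in place of size factors moved the median log2 fold change of all genes from 0.04 to -0.08 and gave 320 genes above and 1088 below without overlap, so the split between small differences in each direction depends on the scaling, with 499 genes at least 2-fold higher and 1562 at least 2-fold lower.

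**Figure D1:**
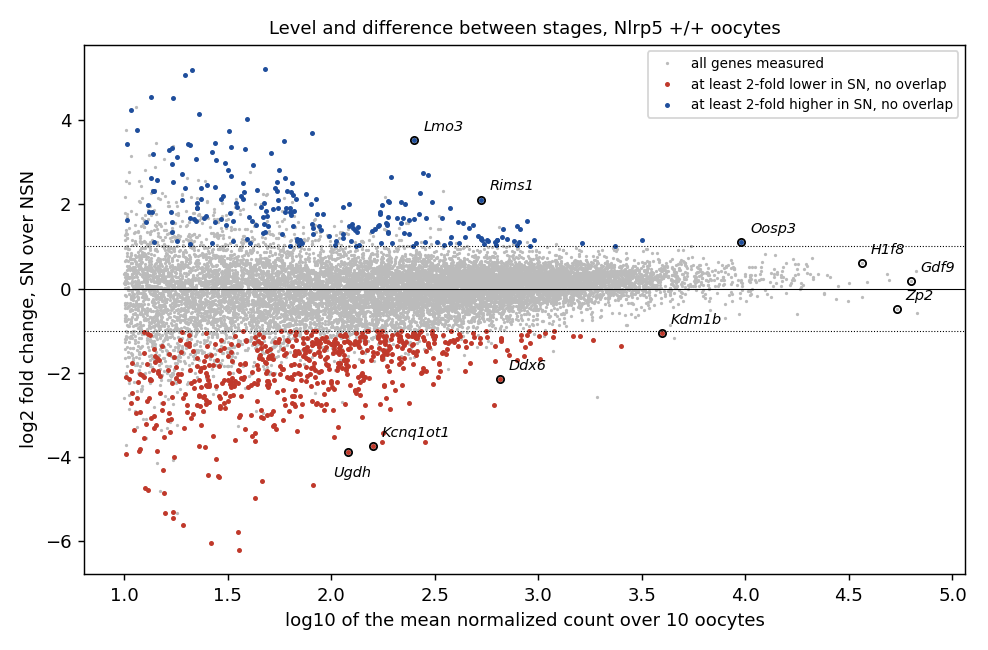
Each point is 1 of 14007 genes, with the log10 of its mean normalized count over the 10 wild-type oocytes on the x axis and the log2 fold change of SN over NSN on the y axis. Coloured points are at least 2-fold apart without overlap, 602 lower and 222 higher in SN, and both clouds thin out at high levels, where no gene with a mean over 10000 reaches 2-fold.

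The staging markers were used to sort the cells and are given only as a description. Of the 105 NSN markers, 104 were measured, 95 of those were lower in SN oocytes, and the median log2 fold change was -1.36. All 59 SN markers were measured and 53 were higher in SN, and the median log2 fold change of all 59 was 0.30. The 5 NSN markers with the largest differences were *Zfp622*, *Zfp707*, *Tmub2*, *Ubtf* and *Ldhc*, at -4.43, -3.66, -3.06, -2.87 and -2.78. The 5 SN markers with the largest differences were *Nckap5*, *Oosp3*, *Tcl1b3*, *Fsd2* and *Ip6k2*, at 1.15, 1.11, 0.92, 0.75 and 0.69, and of these only *Oosp3*, an oocyte-secreted protein, had no overlap between the stages.

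Outside the markers, 12 genes of at least 100 normalized counts with the largest lower values in SN oocytes are described first. *Ugdh*, which makes the UDP-glucuronic acid used for hyaluronan, had 282, 191, 287 and 336 normalized counts in NSN oocytes 70, 78, 79 and 87, and 13.7, 28.9, 5.87, 5.05, 14.2 and 37.3 in SN oocytes 69, 72, 77, 80, 85 and 86. Its lowest NSN value was 5.11 times its highest SN value, and the log2 fold change was -3.89. Summed over each stage, *Ugdh* had 1095 counts in NSN oocytes, or 29.6 CPM (exact 95% Poisson interval 27.9 to 31.4), and 125 in SN oocytes, or 1.85 CPM (1.54 to 2.21). Such intervals cover counting error only, since the reads carry no molecular identifiers. *Klhl21*, an adaptor of a ubiquitin ligase, had 381, 476, 815 and 879 in NSN and 21.2 to 95.8 in SN oocytes, a log2 fold change of -3.65. *Syncrip*, an RNA-binding protein, had 281, 250, 306 and 82.5 in NSN oocytes, and in SN oocytes its values ran from 0 in oocyte 80 to 54.8 in oocyte 77, a log2 fold change of -3.53. The 3 transcripts were well counted in every NSN oocyte and low in every SN oocyte.

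*Kcnq1ot1*, the imprinted noncoding RNA antisense to *Kcnq1*, had 109, 271, 970 and 80.2 normalized counts in NSN oocytes and 17.2 to 35.2 in SN oocytes, a log2 fold change of -3.76. Oocyte 79 set much of the NSN mean, and without it the log2 fold change was -2.55. The strand used in counting is not stated, so reads of *Kcnq1ot1* and *Kcnq1* cannot be told apart where the genes overlap, and *Kcnq1* was at 426 ± 78.4 (SD, n = 4) in NSN and 369 ± 95.3 (SD, n = 6) in SN oocytes. *Zfx*, an X-linked zinc finger activator of transcription, had 235, 483, 684 and 172 in NSN oocytes and 25.4 to 52.3 in SN oocytes, a log2 fold change of -3.44. The same limit holds for *Zfx* and *Klhl21*, whose opposite-strand neighbours *Gm14798* and *Gm9768* had log2 fold changes of -2.80 and -3.38. *Ugdh* and *Syncrip* overlap entries on their own strand, *Gm43552* and *Gm20537*, where strand could not part the reads. *Gm43552* had means of 262 in NSN and 330 in SN oocytes (0.33), and *Gm20537* had 93.2 and 69.3 (-0.42).

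The other 7 of these genes had log2 fold changes between -3.29 and -2.60, again with every SN oocyte below every NSN oocyte. *Map3k2*, a kinase of the MAP kinase cascade, had 175 to 307 normalized counts in NSN and 0 to 44.4 in SN oocytes. *Tgif1*, a repressor of TGF-beta target genes, had 101 to 390 and 6.07 to 43, and *Twsg1*, a secreted modulator of bone morphogenetic proteins, had 301 to 759 and 35.4 to 139. Both act in the signalling family to which the oocyte's own growth factors belong. *Shmt1*, the cytosolic serine hydroxymethyltransferase of one-carbon metabolism, had 144 to 445 in NSN and 16.8 to 59.1 in SN oocytes, and *Slc25a30*, a mitochondrial carrier, had 269 to 425 and 35 to 67.9. *Zmym5*, a zinc finger protein, and *Akirin1*, a nuclear cofactor, were at -3.05 and -2.60. Over the 12 genes the lowest NSN value was 1.51 to 5.11 times the highest SN value.

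The 12 genes with the largest higher values in SN oocytes were mostly detected at low levels in NSN oocytes as well. *Lmo3*, a LIM-only transcription cofactor, had 59.1, 8.29, 3.73 and 61.9 normalized counts in NSN oocytes 70, 78, 79 and 87 and 492, 430, 407, 347, 363 and 340 in SN oocytes 69, 72, 77, 80, 85 and 86. The lowest SN value was 5.49 times the highest NSN value, and the log2 fold change was 3.54. Summed over each stage, *Lmo3* had 135 counts in NSN oocytes (3.65 CPM, exact 95% Poisson interval 3.06 to 4.32) and 2646 in SN oocytes (39.2 CPM, 37.7 to 40.7). *Selp*, the adhesion receptor P-selectin, had 89.6, 60.4, 8.4 and 87.1 in NSN and 313 to 572 in SN oocytes, a log2 fold change of 2.76, and its opposite-strand neighbours *Gm16587* and *Gm16548* were at 2.38 and 1.94. *Pnma5*, an X-linked gene of the paraneoplastic antigen family, had 124, 40.3, 15.9 and 89.4 in NSN and 264 to 667 in SN oocytes, a log2 fold change of 2.71. In all 3 genes NSN oocyte 79 held the lowest value.

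*Rims1*, a scaffold of vesicle release, had 286, 101, 44.8 and 266 normalized counts in NSN and 524 to 1006 in SN oocytes, a log2 fold change of 2.12. *Calb1*, a calcium-binding protein, had 54.1 to 92.1 in NSN and 208 to 352 in SN oocytes, a log2 fold change of 2.06. *Haus7*, a subunit of the augmin complex that branches spindle microtubules, had 78.1 to 135 in NSN and 280 to 706 in SN oocytes, a log2 fold change of 2.05. These 3 genes act in secretion, calcium buffering and the spindle. *Man1a*, which trims mannose from glycoproteins, and *Chst11*, which adds sulphate to chondroitin, were at 2.07 and 2.08, and *Atrnl1*, a membrane protein, *Adgrg4*, an adhesion receptor, and *Rrh*, an opsin-like receptor, were at 2.27, 2.0 and 2.0. *Ccnd2*, cyclin D2, was at 1.93, with NSN values up to 56.8 and SN values from 66.6 in oocyte 69 to 416 in oocyte 72, and without oocyte 72 its log2 fold change was 1.4. *Man1a* had the narrowest gap, its lowest SN value being 1.04 times its highest NSN value. In 10 of the 12 genes oocyte 79 held the lowest NSN value.

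**Figure D2:**
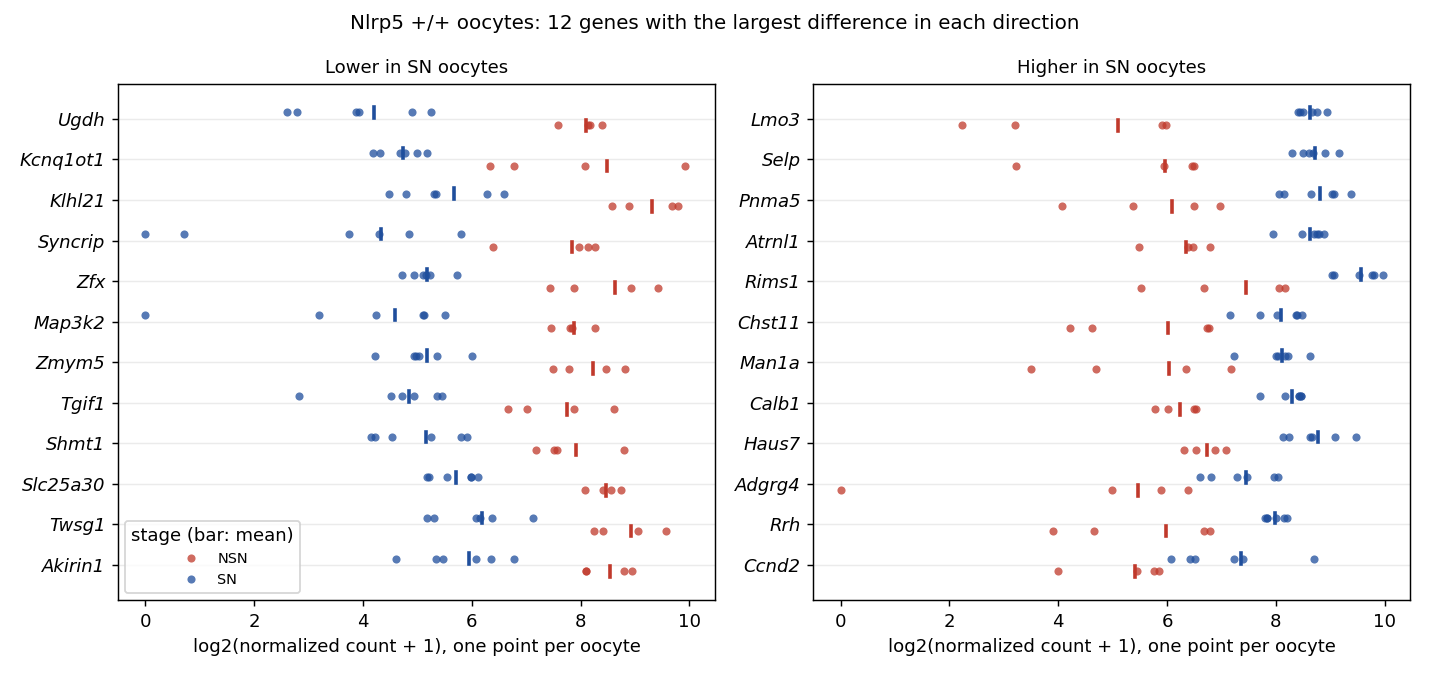
Normalized counts as log2 after adding 1, 1 point for each of 4 NSN and 6 SN wild-type oocytes, for the 12 named genes with the largest difference in each direction. Bars are stage means. The stages do not overlap in any panel row, which the rule for naming required, and Adgrg4 is at 0 in NSN oocyte 79.

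The libraries fall into 3 sets that share a first index in their names, each of which holds both stages, and the labels do not say what such a set is. The 24 genes were named for having no overlap between stages, which fixes their direction within every set, so only the sizes are given. Within the set of oocytes 70, 69 and 72, log2 fold changes ran from -3.75 to -1.67 for the lower and from 0.52 to 2.95 for the higher genes. Within the set of oocytes 78, 79, 77 and 80 they ran from -5.17 to -2.59 and from 1.79 to 5.70, and within that of oocytes 87, 85 and 86 from -4.47 to -1.47 and from 1.11 to 3.26. Of all genes at least 2-fold apart, 1047 of 1290 lower and 533 of 612 higher genes had the same sign in each set, against 5910 of all 14007 genes (42.2%), which reuses the same cells and is partly set by the choice of 2-fold genes.

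The bases before the annotated start differed between the genes of each direction. CG dinucleotides are scarce over most of the mouse genome and frequent at the starts of widely expressed genes, and the ratio of observed to expected CG measures this. RefSeq promoters of GRCm38.p6 matched 10328 of the genes measured, and the 250 bases before the start nearest to that of the count table were used. Genes at least 2-fold higher in SN had a median ratio of 0.41 (n = 404), genes at least 2-fold lower 0.74 (n = 955) and genes less than 2-fold apart 0.73 (n = 8969). A ratio under 0.4 was found in 49.3%, 17.2% and 19.9% of them. Genes above in every SN oocyte had a median of 0.62 (n = 393) with 32.6% under 0.4, and genes below in every SN oocyte 0.79 (n = 631) with 12.2%. Among genes with a mean of at least 100 normalized counts, the shares were 44.6% (n = 101), 10.03% (n = 299) and 14.5% (n = 6544), and without overlap 26.8% above (n = 299) and 8.61% below (n = 360). Genes chosen for a 2-fold difference in *Nlrp5* +/- oocytes, which share no library with those described here, had medians of 0.43 (n = 163) where higher and 0.69 (n = 600) where lower in SN. Of these, 47.9% and 21.3% were under 0.4. All measured genes had a median of 0.72 with 20.8% under 0.4, so the lower genes of this choice were close to all genes. Start sites used in oocytes were not measured, so these are properties of annotated starts.

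The windows of 3 genes of each direction, the largest differences with a RefSeq entry, show the range. Each is the 250 bases before the RefSeq start on GRCm38.p6, written 5' to 3' with each CG in capitals. The letters CG read the same on both strands, and 98.1% of the 10328 windows hold at least 1.
Lmo3, chr6:138581969-138582218, minus strand: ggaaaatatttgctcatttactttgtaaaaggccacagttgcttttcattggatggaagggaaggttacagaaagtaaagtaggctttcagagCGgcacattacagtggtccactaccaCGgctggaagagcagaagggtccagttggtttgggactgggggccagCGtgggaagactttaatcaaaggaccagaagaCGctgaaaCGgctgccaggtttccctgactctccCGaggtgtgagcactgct
Selp, chr1:164115014-164115263, plus strand: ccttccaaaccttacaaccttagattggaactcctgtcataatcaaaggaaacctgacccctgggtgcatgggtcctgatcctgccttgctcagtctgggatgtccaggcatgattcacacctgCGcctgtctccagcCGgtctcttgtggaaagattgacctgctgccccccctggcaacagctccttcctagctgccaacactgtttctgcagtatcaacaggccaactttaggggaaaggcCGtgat
Pnma5, chrX:73037104-73037353, minus strand: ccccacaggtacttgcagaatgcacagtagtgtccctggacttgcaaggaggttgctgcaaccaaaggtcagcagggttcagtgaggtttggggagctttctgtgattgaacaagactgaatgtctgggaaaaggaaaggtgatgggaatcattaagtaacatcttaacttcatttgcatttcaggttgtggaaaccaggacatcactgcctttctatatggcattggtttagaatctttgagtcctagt
Ugdh, chr5:65435843-65436092, minus strand: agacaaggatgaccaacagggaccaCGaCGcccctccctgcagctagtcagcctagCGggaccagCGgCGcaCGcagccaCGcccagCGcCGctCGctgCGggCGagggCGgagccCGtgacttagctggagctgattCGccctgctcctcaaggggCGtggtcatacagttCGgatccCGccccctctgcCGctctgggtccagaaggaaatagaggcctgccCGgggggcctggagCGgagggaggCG
Kcnq1ot1, chr7:143296548-143296797, minus strand: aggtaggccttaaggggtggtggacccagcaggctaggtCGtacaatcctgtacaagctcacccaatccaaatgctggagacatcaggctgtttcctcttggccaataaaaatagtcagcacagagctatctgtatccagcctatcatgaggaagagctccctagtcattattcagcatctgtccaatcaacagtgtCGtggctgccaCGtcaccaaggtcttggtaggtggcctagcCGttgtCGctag
Klhl21, chr4:152008641-152008890, plus strand: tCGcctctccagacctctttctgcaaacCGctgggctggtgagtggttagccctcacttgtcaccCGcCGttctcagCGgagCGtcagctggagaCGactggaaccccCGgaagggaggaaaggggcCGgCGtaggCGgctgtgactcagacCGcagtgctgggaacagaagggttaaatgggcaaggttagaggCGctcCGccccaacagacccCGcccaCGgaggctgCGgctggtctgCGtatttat
The windows of *Lmo3*, *Selp* and *Pnma5*, higher in SN, hold 6, 3 and 0 CG, those of *Ugdh* and *Klhl21*, lower in SN, hold 22 and 18, and that of *Kcnq1ot1* holds 5. Over the 10 higher genes with an entry the number ran from 0 to 31 with a median of 11, with 31 each in *Atrnl1* and *Man1a*. Over the 11 lower genes with an entry it ran from 2 to 31 with a median of 16, with 2 in *Zfx*. The named genes therefore overlap widely in this measure. *Calb1*, *Ccnd2* and *Map3k2* were not in the table.

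**Figure D3:**
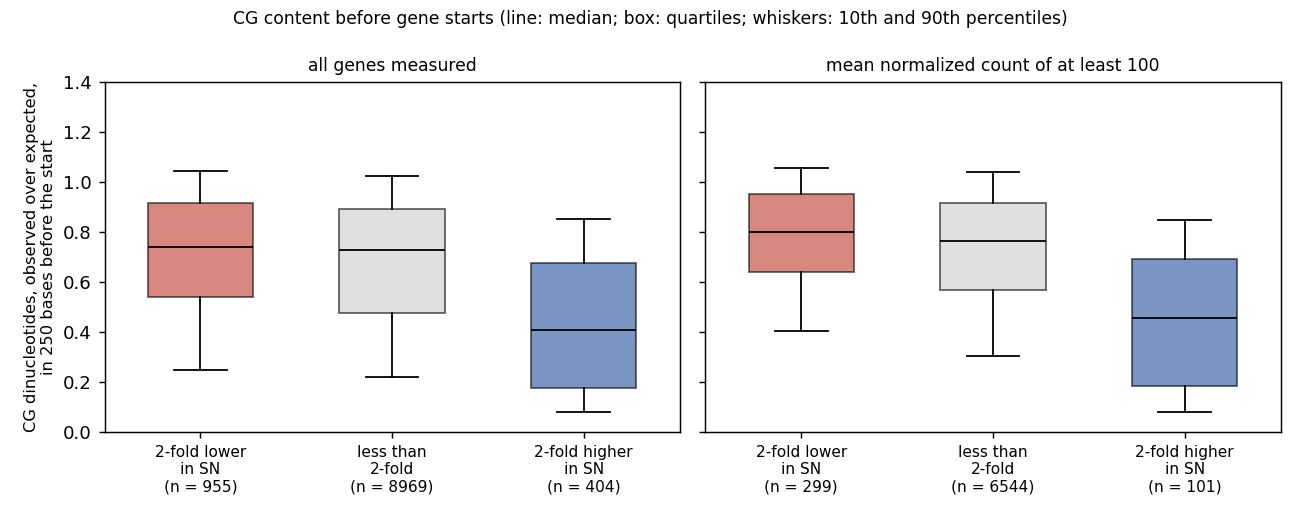
Observed over expected CG in the 250 bases before the RefSeq start for genes at least 2-fold lower in SN, less than 2-fold apart and at least 2-fold higher in SN, over all genes measured (left) and genes with a mean of at least 100 normalized counts (right). Lines are medians, boxes quartiles and whiskers the 10th and 90th percentiles. The boxes of the higher genes sit lowest in both panels, with medians of 0.41 and 0.46.

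Genes of the transcription machinery differed as single members. Of 72 measured genes for RNA polymerase II and its general factors, 7 were at least 2-fold lower in SN (9.72%, against 9.21% of all genes) and none higher (against 4.37%), and the median log2 fold change was 0.05. Without overlap, 7 (9.72%, against 5.9%) lay below and 5 (6.94%, against 3.77%) above. With a mean of at least 100, 5 of 69 were at least 2-fold lower (7.25%, against 4.12%). *Tbpl2*, the TBP paralogue that replaces TBP in the oocyte, had 381, 551, 756 and 296 normalized counts in NSN oocytes and 96.1, 153, 108, 137, 143 and 161 in SN oocytes, a log2 fold change of -1.89. *Eloa*, an elongation factor and staging marker, had 493 to 743 in NSN and 119 to 184 in SN oocytes. *Taf4b*, an oocyte-enriched TFIID subunit, had 531 to 888 in NSN and 180 to 468 in SN oocytes, a log2 fold change of -1.07, while the large polymerase subunit *Polr2a* overlapped, with 222 to 387 and 97.4 to 249. *Polr2d* and *Gtf2h3*, subunits of the polymerase and of TFIIH, were higher in every SN oocyte, at 0.67 and 0.75.

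Zinc finger genes named Zfp, most of which encode DNA-binding proteins, held many lower genes. Of 295 measured, 62 (21.0%, against 9.21% of all genes) were at least 2-fold lower and 5 (1.69%, against 4.37%) higher in SN, 33 (11.2%, against 5.9%) lay below and 5 (1.69%, against 3.77%) above without overlap, and the median log2 fold change was -0.23. The shares move with level, being 44 of 118 (37.3%) between 10 and 100 normalized counts, where all genes had 18.1%, and 18 of 177 (10.2%) from 100 upward, where all genes had 4.12%. *Zfp263* had 267, 206, 330 and 215 normalized counts in NSN oocytes and 65.9, 42.8, 43, 20.2, 60.6 and 49.5 in SN oocytes, a log2 fold change of -2.41. *Zfp277* differed the other way, with 1801 to 3134 in NSN and 3377 to 5551 in SN oocytes, a log2 fold change of 0.85. In the list, 5 of the genes are staging markers, and members of this family can share reads. The median was -0.30, -0.38 and 0.01 in the 3 library sets, so it was not negative in the set of oocytes 87, 85 and 86, and it was -0.07 in *Nlrp5* +/- and -0.52 in *Nlrp5* -/- oocytes.

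Immediate-early genes, whose transcripts turn over fast in somatic cells, had the lowest median of the 34 lists, at -0.70. Of 22 measured, 8 (36.4%, against 9.21% of all genes) were at least 2-fold lower in SN and none higher (against 4.37%), and 3 lay below without overlap (13.6%, against 5.9%). The list holds 4 staging markers, which the staging used, and without them 5 of 18 (27.8%, against 8.84% of all genes that are not markers) were at least 2-fold lower, 1 lay below without overlap, against 774 of 13844 such genes, and the median was -0.45. Of the 22 genes, 16 had a mean between 10 and 100 normalized counts, and 7 of those (43.8%, against 18.1% of all genes there) were at least 2-fold lower. From 100 upward 1 of 6 was (16.7%, against 4.12%). The median of the list was -0.34 in *Nlrp5* +/- and -0.08 in *Nlrp5* -/- oocytes. Among the markers is *Id3*, an inhibitor of helix-loop-helix factors, with 313 to 654 normalized counts in NSN and 29.7 to 205 in SN oocytes. *Bhlhe40*, a circadian repressor, had 252 to 326 in NSN and 97.1 to 210 in SN oocytes, a log2 fold change of -0.92. The best known members were not among the lower genes, with *Egr1* at 70.8 ± 34.6 (SD, n = 4) in NSN and 108 ± 34.2 (SD, n = 6) in SN oocytes, and with *Fos* at 1.15 or less in NSN and 0 to 25.4 in SN oocytes.

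Of 89 measured genes of the nucleolus, which gives the stages their names, 10 (11.2%, against 9.21% of all genes) were at least 2-fold lower in SN and none higher (against 4.37%), and the median log2 fold change was 0.01. Without overlap, 11 (12.4%, against 5.9%) lay below and 1 (1.12%, against 3.77%) above. With a mean of at least 100, 4 of 79 were at least 2-fold lower (5.06%, against 4.12%), and between 10 and 100, 6 of 10 were (60%, against 18.1%). *Ubtf*, an activator of ribosomal DNA transcription and a staging marker, had 291, 380, 564 and 360 normalized counts in NSN and 39.1 to 76.1 in SN oocytes. *Twistnb*, a subunit of RNA polymerase I, had 506 to 664 in NSN and 156 to 384 in SN oocytes, a log2 fold change of -1.27. *Fbl*, the methyltransferase fibrillarin, had 74.6 to 142 and 38.7 to 64.1, a log2 fold change of -0.98 without overlap. The abundant nucleolar proteins *Ncl* and *Npm1* overlapped between the stages, at 0.15 and 0.07. Among 97 splicing genes, 4 were at least 2-fold lower (4.12%, against 9.21%), 6 lay below without overlap (6.19%, against 5.9%), the median was 0.15, *Tra2a*, a splicing regulator, was at -1.28 and *Snrpn*, an imprinted gene for a small nuclear ribonucleoprotein, at 0.99, both without overlap.

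Nuclear-encoded genes for oxidative phosphorylation, the proteasome and ribosomal proteins held few members of 2-fold difference. With a mean of at least 100, 1 of 78 (1.28%), 1 of 34 (2.94%) and 1 of 81 (1.23%) were at least 2-fold lower for oxidative phosphorylation, the proteasome and ribosomal proteins, against 4.12% of all genes at that level. Of 78 nuclear genes for oxidative phosphorylation, 67 had a positive log2 fold change (52.8% of all genes measured did), the median was 0.28, and 1 was at least 2-fold lower, the staging marker *Uqcrc1*. Of 35 proteasome subunits, 29 were positive and the median was 0.27, with *Psma2* and *Psmb7* higher in every SN oocyte at 0.75 and 0.60 and *Psmd13* lower at -1.16. Of 83 cytoplasmic ribosomal protein genes, 66 were positive and the median was 0.15, while *Rpl9* had 280 to 335 normalized counts in NSN and 43.9 to 265 in SN oocytes. In *Nlrp5* +/- oocytes the 3 medians were -0.14, -0.00 and -0.14, and in the set of oocytes 87, 85 and 86 those of oxidative phosphorylation and ribosomal proteins were -0.08 and -0.31. The 13 mitochondrially encoded genes had a median of 0.25, and 3 of them (23.1%, against 4.37% of all genes) were at least 2-fold higher in SN, all with overlap between the stages. These 3, named after their values were seen, are mt-Co2, mt-Atp8 and mt-Atp6, at 1.27, 1.75 and 2.19. The median was 0.49, -0.81 and 1.26 in the 3 library sets, and the mitochondrial share of counts was 0.207% to 0.394% in NSN and 0.101% to 0.374% in SN oocytes. Of 58 translation initiation and elongation factors, 5 were at least 2-fold lower (8.62%, against 9.21% of all genes) and none higher (against 4.37%). With a mean of at least 100, 1 of 53 was lower (1.89%, against 4.12%). *Eif4h*, a cofactor of the translation initiation helicase, was lower in every SN oocyte at -1.07.

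**Figure D4:**
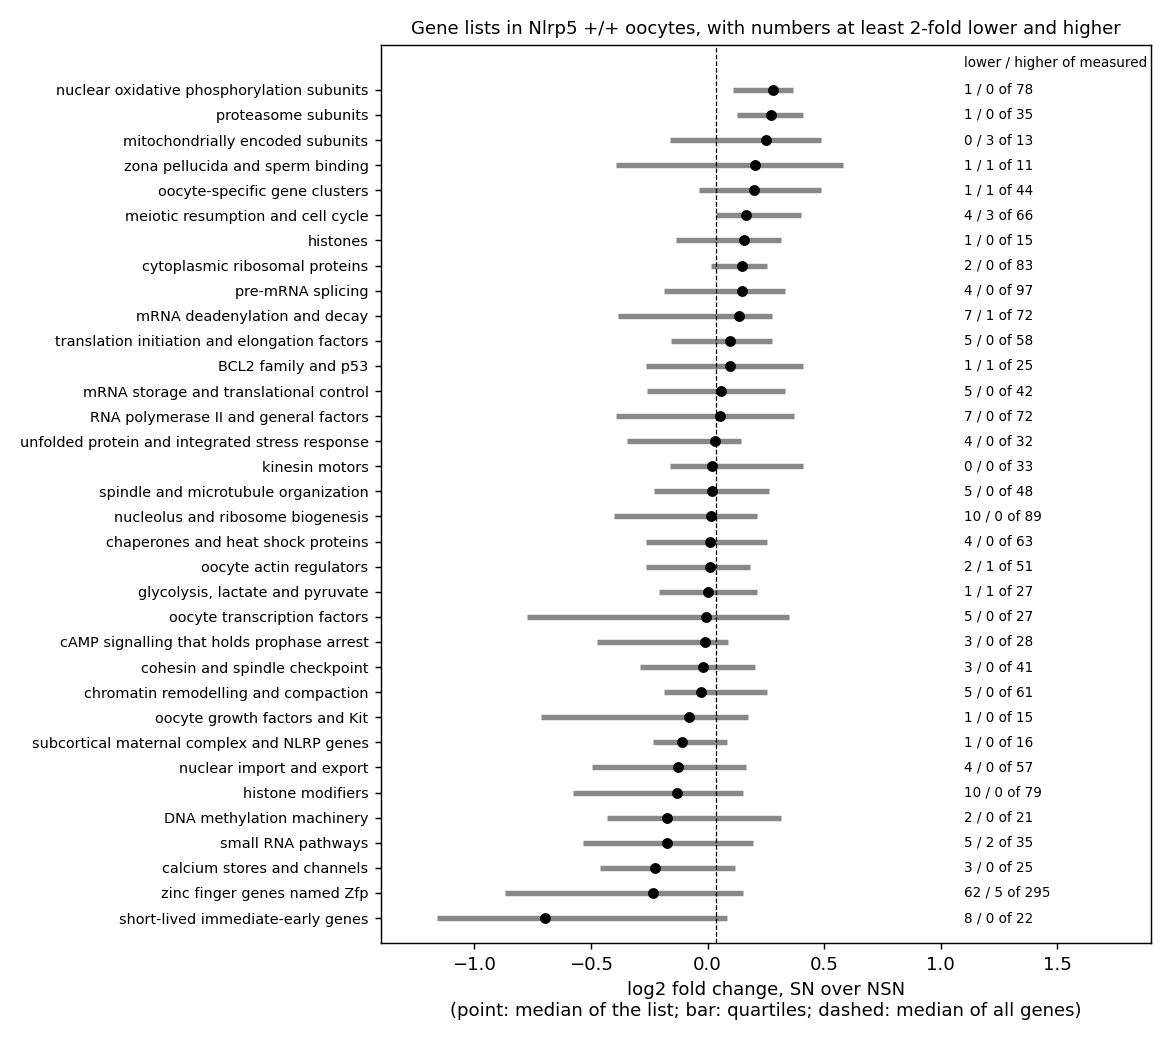
Median (point) and quartiles (bar) of the log2 fold change of SN over NSN for the 34 gene lists in wild-type oocytes, with the numbers at least 2-fold lower and higher of those measured at the right. The immediate-early and Zfp lists lie farthest to the left, at -0.70 and -0.23.

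Regulators of stored messenger RNA differed in both directions. *Ddx6*, a helicase of RNA storage granules, had 1247, 1485, 1666 and 480 normalized counts in NSN oocytes and 188, 250, 395, 223, 221 and 358 in SN oocytes, a log2 fold change of -2.16 without overlap. *Pabpc1*, a poly(A)-binding protein, had 131 to 356 in NSN and 34.8 to 130 in SN oocytes, a log2 fold change of -1.71. *Ybx2*, *Zar1* and *Cpeb1*, factors that hold messages in store in the oocyte, overlapped at 0.02, 0.14 and 0.38. Of 42 storage genes measured, 5 (11.9%) were at least 2-fold lower and none higher, and of 72 genes of deadenylation and decay, 7 (9.72%) were lower and 1 (1.39%) higher, against 9.21% lower and 4.37% higher among all genes. With a mean of at least 100 the shares lower were 10% of 40 and 7.35% of 68, against 4.12%. *Tob1*, which recruits a deadenylase, had 211 to 353 in NSN and 49.5 to 99.8 in SN oocytes, a log2 fold change of -1.60. *Btg4*, which does so in the maturing oocyte, was higher in every SN oocyte, with 10137 to 14216 in NSN and 14546 to 17723 in SN oocytes, a log2 fold change of 0.39.

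In the small RNA pathways, 5 of 35 genes (14.3%, against 9.21% of all genes) were at least 2-fold lower in SN and 2 (5.71%, against 4.37%) higher, and without the 2 staging markers 4 of 33 (12.1%) were lower. *Piwil2*, a PIWI protein, had 138, 153, 366 and 101 normalized counts in NSN and 12.9 to 71.7 in SN oocytes, a log2 fold change of -2.19. *Ddx4*, the germ cell helicase of the piRNA pathway, had 1056, 1331, 2215 and 783 in NSN and 204 to 662 in SN oocytes, a log2 fold change of -1.71. *Ago2*, the Argonaute that cleaves targets, was at -0.79 without overlap, and *Dicer1*, which makes the endogenous small interfering RNAs of mouse oocytes, overlapped at -0.01.

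Histone modifiers had 10 of 79 genes at least 2-fold lower in SN (12.7%, against 9.21% of all genes) and none higher (against 4.37%), with a median log2 fold change of -0.13. The same number, 10 (12.7%, against 5.9%), lay below without overlap and 1 (1.27%, against 3.77%) above. Of the 67 with a mean of at least 100, 6 were at least 2-fold lower (8.96%, against 4.12%), and of the 12 under 100, 4 were (33.3%, against 18.1%). *Kdm1b*, the H3K4 demethylase needed for DNA methylation at imprinted loci in the oocyte, had 5597, 5934, 7413 and 4025 normalized counts in NSN oocytes and 2630, 2549, 3317, 1917, 2266 and 3770 in SN oocytes, a log2 fold change of -1.07 without overlap. *Sirt1*, a deacetylase, and *Kdm3b*, an H3K9 demethylase, were at -1.59 and -1.52, and *Kat5*, an acetyltransferase, was at 0.48, each without overlap. *Setd2*, the H3K36 methyltransferase, overlapped at -0.65. Of 61 chromatin remodelling genes, 5 were at least 2-fold lower (8.20%, against 9.21%) and none lay below without overlap (against 5.9%), and *Hmgb2*, a DNA-bending protein, was higher in every SN oocyte at 0.92. Among 15 histone genes, the oocyte linker histone *H1f8* had 22161 to 30431 in NSN and 34717 to 63326 in SN oocytes, a log2 fold change of 0.62 without overlap, and the variants *H2az2* and *H2az1* were at 0.73 and -1.37. In *Nlrp5* +/- oocytes the log2 fold change of *H1f8* was 0.02.

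The DNA methylation machinery held 2 of 21 genes at least 2-fold lower in SN (9.52%, against 9.21% of all genes) and none higher (against 4.37%), and 1 lay below without overlap (4.76%, against 5.9%). The 2 genes, named after their values were seen, are *Uhrf2*, a ubiquitin ligase related to *Uhrf1*, with means of 123.4 normalized counts in NSN and 17.3 in SN oocytes (-2.77, no overlap), and the oxidase *Tet2*, with 93.1 and 44.1. *Dnmt3l*, the cofactor of de novo methylation, had 1306, 1292, 939 and 1586 normalized counts in NSN oocytes and 2530, 2116, 2159, 2244, 2514 and 1580 in SN oocytes, a log2 fold change of 0.77. Only SN oocyte 86 reached into the NSN range of *Dnmt3l*. Its partner *Dnmt3a* had 1507 to 2120 in NSN and 1383 to 1914 in SN oocytes, a log2 fold change of -0.19. *Dnmt1* and *Uhrf1*, which maintain methylation, were at -0.26 and -0.15, the oxidase *Tet3* was at -0.22 and *Dppa3*, a maternal factor that limits methylation, at 0.53, and all 4 overlapped. For *Dnmt3l* the log2 fold change was 0.30 in *Nlrp5* +/- and 0.38 in *Nlrp5* -/- oocytes.

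Of 44 genes of oocyte-specific clusters, 7 (15.9%, against 3.77% of all genes) lay above without overlap in SN and none below (against 5.9%), while 1 was at least 2-fold higher (2.27%, against 4.37%) and 1 lower (2.27%, against 9.21%). All 44 had a mean of at least 100, where 4.27% of all genes lay above. The list holds 4 staging markers, and the marker *Oosp3* is among the 7. Its median was 0.20 in wild-type and 0.01 in *Nlrp5* +/- oocytes. Of 16 genes of the subcortical maternal complex and the NLRP family, 1 was at least 2-fold lower (6.25%, against 9.21%), the staging marker *Nlrp4c*, and none was without overlap. *Nlrp5*, the gene mutated in the other genotypes of the series, had 13442, 21922, 36705 and 17291 normalized counts in NSN and 12673 to 18642 in SN oocytes. Its log2 fold change was -0.60, and -0.26 without oocyte 79. The zona pellucida genes *Zp1*, *Zp2* and *Zp3* overlapped at 0.21, -0.50 and -0.13, and *Cd9*, needed for fusion with sperm, had 2588 to 4717 in NSN and 1119 to 2376 in SN oocytes, a log2 fold change of -0.86. The growth factors *Gdf9* and *Bmp15* overlapped at 0.19 and 0.16, while the activin receptors *Acvr2a* and *Acvr1b* were lower in every SN oocyte at -0.92 and -0.78. Of 27 oocyte transcription factors, 5 (18.5%, against 9.21% of all genes) were at least 2-fold lower, *Zfx*, *Tbpl2* and *Taf4b* among them, and *Nobox*, *Figla* and *Lhx8* overlapped at -0.38, -0.36 and 0.16. *Obox2* and *Obox5*, homeobox genes of a tandem cluster whose copies can share reads, were higher in every SN oocyte at 0.80 and 0.69.

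Genes of meiotic resumption and the cell cycle had 4 of 66 members at least 2-fold lower in SN (6.06%, against 9.21% of all genes), 3 higher (4.55%, against 4.37%) and a median log2 fold change of 0.17. *Aurka*, a kinase of the spindle poles, had 1770, 1304, 1471 and 1692 normalized counts in NSN oocytes and 3559, 2593, 3210, 2948, 3181 and 2346 in SN oocytes, a log2 fold change of 0.93 without overlap. *Wee1*, an inhibitory kinase of CDK1, had 499 to 700 in NSN and 63.7 to 201 in SN oocytes, a log2 fold change of -1.97, and its oocyte counterpart *Wee2* overlapped at 0.21. The drivers of division *Cdk1*, *Ccnb1*, *Cdc25b* and *Mos* overlapped at 0.14, 0.18, 0.09 and 0.16. *Pds5a*, a cohesin regulator, had 309 to 888 in NSN and 62.7 to 246 in SN oocytes, a log2 fold change of -2.01, and the checkpoint genes *Bub3* and *Ttk* were at 0.56 and 0.41 without overlap. Among spindle genes, *Tacc3* and *Tubb4b* were higher in every SN oocyte at 0.51 and 0.45, and the dynein heavy chain *Dync1h1* lower at -1.13. *Spire1*, which nucleates actin, and *Limk2*, a kinase for cofilin, were higher in every SN oocyte at 0.68 and 0.75, and of 33 kinesins none differed by 2-fold or lacked overlap, against 9.21% lower and 4.37% higher by 2-fold and 5.9% below and 3.77% above among all genes.

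Signalling and stress genes differed in a few members. In the cAMP pathway, which holds the oocyte in prophase, the adenylyl cyclase *Adcy6* had 147 to 316 normalized counts in NSN and 18.7 to 91 in SN oocytes, a log2 fold change of -1.89, and *Adcy1*, a staging marker, had 338 to 893 and 91.6 to 159. The receptor *Gpr3* and the phosphodiesterase *Pde3a* overlapped at 0.15 and 0.04. Of 63 chaperone genes, 4 were at least 2-fold lower (6.35%, against 9.21% of all genes) and none higher (against 4.37%), and 8 (12.7%, against 5.9%) lay below and 2 (3.17%, against 3.77%) above without overlap. Among those without overlap were the heat shock factor *Hsf2* at -2.42, the chaperonin subunit *Cct6a* at -2.32, and *Fkbp5* and *Dnajc9* at 0.94 and 0.76. *Syvn1*, a ubiquitin ligase of the endoplasmic reticulum, was at -0.89 and *Pdia4*, a disulphide isomerase, at 0.55. The cation channel *Trpv3* was at -1.13, the import receptor *Tnpo2* at -0.50 and *Trp63*, a p53 relative that guards the oocyte genome, at -0.78, each without overlap.

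Genes chosen in the *Nlrp5* +/- oocytes, 9 NSN and 7 SN, gave a choice made on other libraries, with stages read by eye as given above. At least a 2-fold difference was found there for 252 genes higher and 929 lower in SN, of which 248 and 806 were measured in wild-type oocytes and are not markers. Of the 248, 228 (91.9%) were also higher in wild-type SN oocytes, and 89 (35.9%) lay above without overlap, against 3.77% of all genes measured. Of the 806, 757 (93.9%) were also lower and 314 (38.96%) lay below without overlap, against 5.9%. Their median log2 fold changes in wild-type oocytes were 1.16 and -1.34, and of all genes measured 52.8% were higher in SN. Both sets of cells were staged with the same markers, so genes that follow the markers are shared by the way the stages were set.

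By these genes each wild-type oocyte could be placed singly. For the 806 lower genes, the median deviation from the mean of the 10 oocytes was 0.79, 0.86, 1.35 and 0.89 on the log2 scale in NSN oocytes 70, 78, 79 and 87, and -0.75, -0.03, -0.47, -0.60, -0.57 and -0.38 in SN oocytes 69, 72, 77, 80, 85 and 86. Oocyte 79 was the most extreme NSN cell, and oocyte 72 the SN cell nearest to the NSN range. For the 248 higher genes the values were -0.21, -0.59, -1.79 and -0.47 in NSN oocytes and 0.53 to 0.74 in SN oocytes, where oocyte 72, at 0.57, lay among the others.

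**Figure D5:**
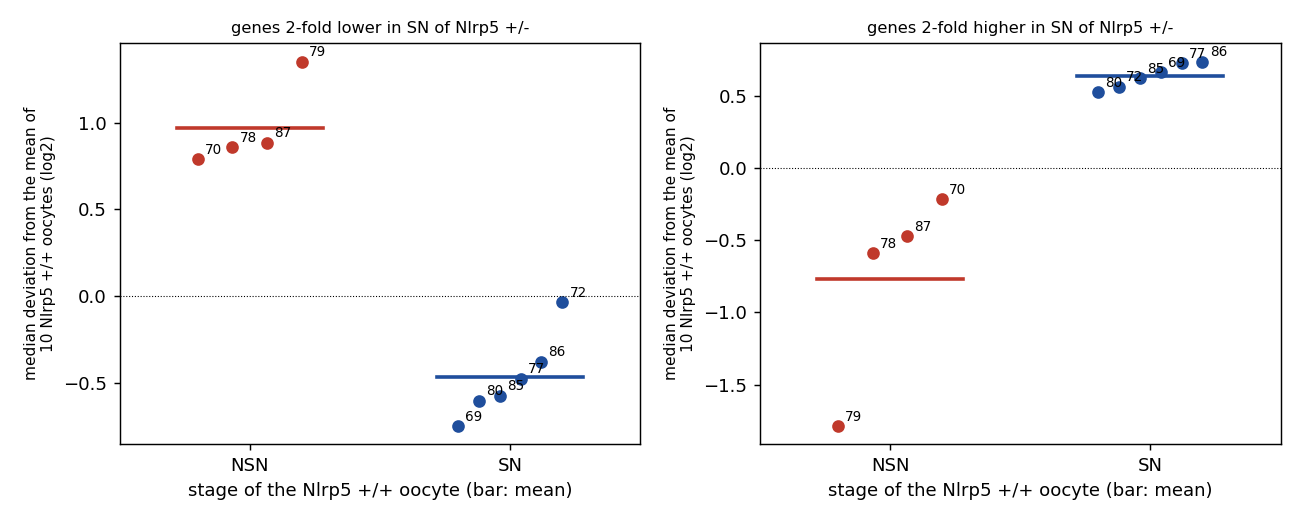
Median deviation (log2) in each wild-type oocyte, from the mean of the 10, of genes at least 2-fold lower (806 genes) or higher (248 genes) in SN oocytes of Nlrp5 +/- mice. Bars are stage means. The stages take separate ranges in both panels, oocyte 79 stands apart from the other NSN oocytes, and oocyte 72 lies near 0 only for the lower genes.

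In the other genotypes the 12 lower genes ran from -3.02 to -1.37 (log2 fold change) in *Nlrp5* +/- and from -2.68 to -1.17 in *Nlrp5* -/- oocytes, of which there were 4 NSN and 2 SN. The 12 higher genes ran from 0.40 to 2.70 in *Nlrp5* +/- and from -0.25 to 2.32 in *Nlrp5* -/- oocytes, with 9 at least 2-fold higher in each. *Calb1* was at 2.06 in wild-type, 1.22 in *Nlrp5* +/- and 0.07 in *Nlrp5* -/- oocytes, and *Ccnd2* at 1.93, 0.40 and -0.25. Smaller rises in wild-type SN oocytes did not always recur in *Nlrp5* +/- oocytes. There *H1f8*, *Psma2*, *Bub3* and *Tubb4b* were at 0.02, 0.08, 0.11 and -0.12, and *Hmgb2*, *Fkbp5* and *Spire1* at 0.83, 0.87 and 0.57. Each gene was named for its wild-type value, and differences between genotypes were not tested.

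Markers of the cells around the oocyte were mostly low, and some differed between the stages. Of 17 granulosa markers, 7 were measured, and the summed level of the list was 278 to 477 CPM in NSN and 318 to 413 in SN oocytes, with *Serpine2* the largest part. The defining granulosa genes *Foxl2* and *Amh* were at 0 in every NSN oocyte and reached 3.77 and 1.96 normalized counts in SN oocytes. *Cyp19a1*, the aromatase gene in that list, had 239, 514, 76.6 and 362 in NSN and 581 to 851 in SN oocytes, a log2 fold change of 1.19 without overlap. Members of the list went both ways, with 2 of the 7 at least 2-fold higher in SN (28.6%, against 4.37% of all genes) and 1 lower (14.3%, against 9.21%). *Inhba*, a subunit of activin and inhibin, had 19.4, 13, 10.3 and 40.1 in NSN and 0 to 9.78 in SN oocytes, a log2 fold change of -2.16 without overlap. *Inha*, the alpha subunit of inhibin, had means of 6.52 and 18.8, a log2 fold change of 1.399 with overlap. Of 9 theca and interstitial markers, 5 were measured. All 9 together summed to 49.3 to 62.5 CPM in NSN and 27.8 to 45.7 in SN oocytes, with no overlap between the stages. *Fdx1* was the largest part of that sum, at 40.8 CPM in NSN and 27.4 in SN oocytes with counts summed over each stage. *Cyp17a1* was at 0 in every NSN oocyte. *Ptch1*, a hedgehog receptor in the theca list, had 62.8 to 153 normalized counts in NSN and 3.03 to 18.9 in SN oocytes, a log2 fold change of -3.08 without overlap. *Star*, which carries cholesterol into mitochondria for steroid synthesis, had means of 23 and 7.81, a log2 fold change of -1.45 with overlap. These were the 2 of the 5 theca markers at least 2-fold lower (40% against 9.21% of all genes), 4 of the 5 had a negative log2 fold change and the median was -0.41. Of 13 stroma, vessel and blood markers, 6 were measured. All 13 together summed to 46.2 to 75.5 CPM in NSN and 73.0 to 87.6 in SN oocytes, with *Lyz2* at 0 in every oocyte. In that list 2 genes, named after their values were seen, were at least 2-fold higher in SN (33.3% of 6, against 4.37% of all genes), *Kdr* with means of 10.8 and 50.6 normalized counts and *Dcn* with 5.53 and 37.2, and *Pecam1* was high at both stages, with 549 and 663. The part of such cells in the differences between stages was not tested.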

How the data were processed

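RNA from single germinal vesicle oocytes was sequenced by the authors on a NextSeq500 as paired-end reads, with Trim Galore for trimming and HISAT2 for alignment (versions not given in the sources used here). The deposited counts are reads per gene, not normalized, on GRCm38 by the column names (the methods name GRCm39). The authors left out libraries under 4000000 reads. Their 3 tables of expression comparisons were not used. Of 35373 entries, 52 repeated ones were dropped.

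Counts were scaled by median-of-ratios size factors with pandas 2.3.3 and numpy 2.4.6 on Python 3.11.15, and intervals came from scipy 1.17.1. Scripts were tested on simulated data. A pseudocount of 1, a minimum mean of 10 and a fold of 2 were used. The 12 largest differences each way were taken from genes with a mean of at least 100 and no overlap, neither staging markers nor predicted symbols. Then came 2 each way per list, with the same level and no overlap, staging markers included. The 5 markers each way came from all measured markers, and known members of a list were named whatever their values. Members and lists were chosen with earlier results of these data known. Depth per oocyte limits low genes, and intervals are exact 95% Poisson.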

Additional observations from a re-analysis of the deposited data

Results flagged for a closer look

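In 222 groups of 4 NSN or 6 SN oocytes, 10 held a value that lay apart from the rest by Dixon's criterion (95%). This is no more than the share of about 1 in 20 that chance alone is expected to give. Among SN oocytes, oocyte 80 was highest for H1f8 at 63326, Tubb4b at 26987 and Ip6k2 at 726 normalized counts, and lowest for Tob1 at 49.5. Ccnd2 was highest in oocyte 72 at 416, Tdrd12 highest in oocyte 85 at 3727 and Cd9 lowest in oocyte 69 at 1119. Among NSN oocytes, oocyte 79 was highest for Shmt1 at 445 and Pds5a at 888, and oocyte 78 was lowest for Lsm3 at 839, where the other 3 lay between 868 and 873.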

How the results depend on the processing

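The 612 higher and 1290 lower genes past 2-fold stayed within 1.5 times under TMM factors, total counts, pooled sums, stage medians, a pseudocount of 5, removal of staging markers and removal of any 1 oocyte. Without a filter they were 2038 and 3053, and with a mean of at least 100 they were 150 and 368, by construction from more and fewer genes. The genes without overlap (528 higher, 827 lower) became 320 higher under total counts and 444 lower with a mean of at least 100. With 1 oocyte left out they ran from 583 to 978 higher and from 883 to 1355 lower, the upper ends without NSN oocyte 87. Within the library sets of 3 or 4 oocytes the genes past 2-fold were 1024, 1181 and 1487 higher and 1411, 1819 and 1558 lower, and genes without overlap were 4885, 3215 and 5158 higher and 4884, 3413 and 5188 lower, where fewer cells overlap less. Genes of Nlrp5 +/- oocytes that were also without overlap there had a median of 1.814 in wild-type oocytes (24 higher genes). The 2-fold choice alone gave 1.161 (248 higher genes), and 1.26 with oocyte 61 left out of the choice (272 genes). The difference in detected genes (181.4, NSN minus SN) ranged from -142.7 to 336.7 with 1 oocyte left out. Of the values of single named genes with 1 oocyte left out, 1697 stayed within the spread between oocytes and 3 did not. The 3 were Kcnq1ot1 without oocyte 79 (-2.548) and the markers of other cells Col3a1 without oocyte 70 (2.604) and Hbb-bs without oocyte 87 (3.552). Leaving out 1 oocyte shifts a stage mean by less than the SD of that stage, so most values were bound to stay. These counts therefore do not measure robustness. Of list medians, 326 stayed and 14 moved with 1 oocyte left out, a setting that keeps all the other cells and so moves values little. Within the library sets 51 list medians stayed and 51 moved, and under the other settings 251 stayed and 21 moved. Of single named genes, 370 stayed and 140 moved within the library sets, and 848 stayed and 2 moved under the other settings. The labels give no number that pairs oocytes, but as a replicate block added after seeing the data, the mean of the 3 within-set differences gave 689 higher and 1153 lower genes. Genes of 10 to 100 normalized counts rest on the fewest reads.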

Other observations

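Symbols that are predicted or numbered made up 154 of the 612 genes at least 2-fold higher in SN (25.2%), 175 of the 1290 lower (13.6%) and 2332 of all 14007 measured (16.6%). Of the genes chosen in Nlrp5 +/- oocytes, 8 were at least 2-fold apart in the opposite direction in wild-type oocytes, and they are named here after their values were seen. Epha7, Pcdha8 and Pcdha12 were lower in wild-type SN oocytes, at -1.28, -2.09 and -2.005 (log2 fold change), and Gm6176, Gm10699, Ccl2, C2 and Tceal8 were higher, at 1.02, 1.13, 1.901, 1.55 and 1.65. Their wild-type stage means were 53.5 normalized counts or less. Rec8, the meiotic cohesin subunit, had no counts in any of the 10 oocytes.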
